A study of Mus musculus with 24 samples.

Results

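Chemokines and their receptors were described across the livers of control mice, mice with acute pancreatitis and mice with severe acute pancreatitis. Members were the entries of the expression table whose gene symbol begins with Ccl, Cxcl, Cx3cl, Cx3cr, Ccr, Cxcr or Ackr, continues with a number and may end in a single letter. There were 65 such entries among the 55536 of the table, carrying 60 symbols, because 4 symbols (Ccl19, Ccl21a, Ccl21b and Ccl27) appear in several entries. They comprised 44 entries of ligands, 17 of signalling receptors and 4 of atypical receptors. A mean of at least 1 TPM (transcript abundance, scaled to transcript length and to a fixed total per library) in any group was reached by 27 of the 65, of which 23 were ligands, 2 were receptors and 2 were atypical receptors (Ackr1 and Ackr3). Nearest to that limit were Ccr7 just inside, with a highest group mean of 1.16 TPM, and Cx3cr1 just outside, with 0.965 TPM.

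RNA was sequenced from 24 livers of wild-type Balb/c mice at 6 weeks of age, with 8 healthy controls (Con), 8 with acute pancreatitis (AP), in which the pancreas is inflamed, and 8 with severe acute pancreatitis (SAP), the form that can damage distant organs. The sources used here do not say how pancreatitis was induced or how long before sampling. Libraries carry numbers in the labels, which do not state that each is its own mouse. P-values therefore measure only the spread between libraries, and "liver" below stands for a library. Because TPM accounts for transcript length, levels of different genes can be compared, but it keeps no read counts and the sequencing depth is unknown.

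Chemokines are small secreted proteins that guide leukocytes along concentration gradients by binding G-protein-coupled receptors on the migrating cell. Inflammatory chemokines are made on demand by macrophages, endothelium, stellate cells and hepatocytes, whereas homeostatic chemokines such as Cxcl12 are made steadily and hold cells in place. Atypical receptors bind chemokines without the usual G-protein signal, and so move, store or remove them.

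The summed chemokine ligands overlapped between control and AP livers and were far higher in SAP livers. Their summed level was 83.3 TPM in the lowest control, 101 TPM at the median and 249 TPM in the highest. In AP it ran from 96.4 TPM through a median of 139.5 TPM to 176 TPM, and in SAP from 1042 TPM through 1398 TPM to 2127 TPM. Every SAP liver thus lay above every AP and control liver, while AP and controls overlapped. The receptors moved differently, as their summed level was low and overlapping in the 3 groups, with medians of 3.83 TPM in controls, 2.63 TPM in AP and 2.67 TPM in SAP. The 4 atypical receptors summed to at most 3.44 TPM in controls and 4.55 TPM in AP, and to at least 9.39 TPM in SAP. In whole liver, fewer cells of a type and less RNA per cell cannot be told apart, nor can more cells and more RNA per cell.

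**Figure D1:**
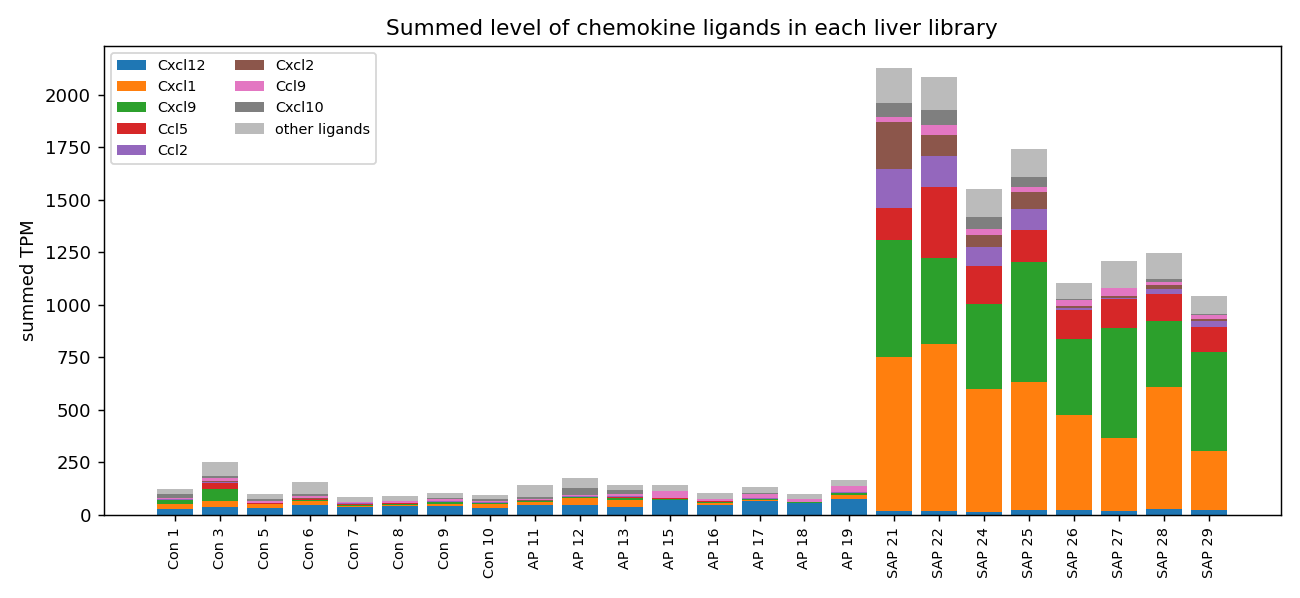
Summed TPM of all chemokine ligand entries in each of the 24 livers, stacked by ligand (vertical axis, TPM, linear from 0; horizontal axis, libraries by group). SAP columns reach 1042 to 2127 TPM and are filled mainly by Cxcl1, Cxcl9 and Ccl5, whereas Cxcl12 fills the most of AP and of most control columns.

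The make-up of the ligand sum also differed. Cxcl12 held 31.6 ± 10.8% of it in controls (SD, n = 8) and led in 6 of 8 livers, and in AP it held 41.2 ± 11.4% and led in all 8. In SAP Cxcl1 held 36.2 ± 6.39% and led in 6 livers, and Cxcl9 held 31.5 ± 9.02% and led in the other two. Ccl5 followed with 11.1 ± 2.66%.

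For single genes, levels were compared as log2(TPM + 1) with limma for the 10555 genes whose mean across the 24 livers was 1 TPM or more. A gene passed where its Benjamini-Hochberg adjusted p was below 0.05. On this scale changes of low genes are understated. Of the 65 members 24 were tested, 23 ligands and Ackr1, and the other 41 fell under the filter. Of the 24, 5 (Ccl3, Cxcl2, Cxcl3, Cxcl5 and Cxcl14) had a mean under 1 TPM in both controls and AP and entered only through SAP, so that they had to differ, and the counts below are a description.

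Between SAP and controls 17 of the 24 were higher in SAP (70.8%, where 44.2% of all genes tested were higher), 2 were lower (Cxcl12 and Ccl24, where 29.8% of all genes were lower) and 5 did not pass. A rise of at least 3 on the log2 scale was seen in 8 of the 24 (33.3%) and in 1.59% of all genes tested. The median log2 change of the 24 was 1.84, beside 0.21 over all genes tested. For 10 members every SAP liver lay above every control, which held for 23.2% of all genes. For 13 members every SAP liver lay above every AP liver (22.0% of all genes) and for 1, Cxcl12, below (15.2%). Between SAP and AP 17 members were higher in SAP, beside 41.0% of all genes, and 2 were lower (Cxcl12 and Ccl21a), beside 31.0%. Here 9 members exceeded a log2 change of 3, beside 1.45% of all genes, and the median log2 change was 1.89, beside 0.13. Between AP and controls 1 of the 24 was higher in AP (Cxcl12), beside 4.35% of all genes, and none was lower, beside 1.13%. In either direction 5.48% of all genes passed, and 23 members did not. The SAP and AP comparisons with controls share the same 8 control livers.

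**Figure D2:**
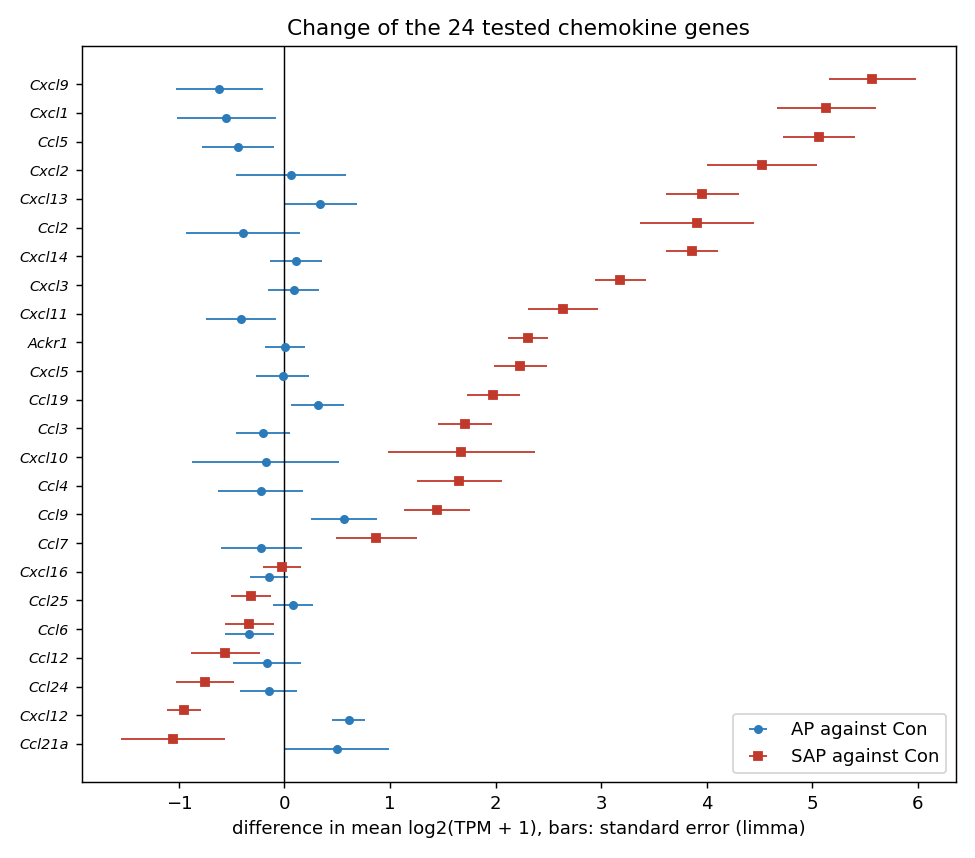
Log2 change of TPM + 1 (horizontal axis, with the standard error as a bar) of the 24 tested members in AP against controls and in SAP against controls. The AP values lie between -0.62 and 0.61, Cxcl12 being the only member that passed there, and the SAP values reach 5.57 for Cxcl9.

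The inflammatory chemokine genes lie in clusters (GENCODE M21, GRCm38). Cxcl5, Cxcl3, Cxcl1 and Cxcl2 span chr5:90759360-90905938, and Cxcl9, Cxcl10 and Cxcl11 span chr5:92321347-92365485. Ccl2, Ccl7 and Ccl12 span chr11:82035571-82103400, and Ccl5, Ccl9, Ccl6, Ccl3 and Ccl4 span chr11:83525778-83664683. Cxcl12 lies alone at chr6:117168535-117181367. Cluster mates did not all move alike.

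Neutrophil-attracting CXC ligands, which bind CXCR2, were higher in SAP than in controls in all 4 tested cases (44.2% of all genes were). Of these, Cxcl2, Cxcl3 and Cxcl5 entered the test only through SAP and had to differ, so this count is a description. Cxcl1, the most abundant chemokine of SAP livers, measured 4.74 to 26.0 TPM in controls (median 18.2) and 1.75 to 33.9 TPM in AP (median 9.52). In SAP it measured 280.4 to 798 TPM, with a median of 586. No SAP liver came near the range of the other groups, and the log2 change against controls was 5.13 ± 0.47 (SE; limma adjusted p = 4.66e-10), the 29th largest rise of the 10555 genes. Against AP it was 5.69 (limma adjusted p = 8.61e-11).

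Cxcl2, a close relative made by activated macrophages, was nearly silent outside SAP, at 0.16 to 1.44 TPM in controls (median 0.34) and 0.12 to 1.63 TPM in AP (median 0.39). It reached 6.73 to 227 TPM in SAP (median 37.3), and its log2 change was 4.52 ± 0.52 (limma adjusted p = 2.56e-08). Cxcl3, of the same gene cluster, went from 0.14 to 0.52 TPM in controls (median 0.33) and 0.18 to 1.65 TPM in AP (median 0.31) to 5.73 to 27.4 TPM in SAP (median 10.2), a log2 change of 3.18 ± 0.24 (limma adjusted p = 1.59e-11). Cxcl5, known from epithelial cells, was at or below 0.06 TPM in every control and 0.03 TPM in every AP liver, and at 1.32 to 14.8 TPM in SAP (median 3.44). Its log2 change was 2.23 ± 0.25 (limma adjusted p = 1.88e-08). In all 4 genes the SAP livers stood wholly above both other groups, and none passed between AP and controls. Over all genes tested, 23.2% had every SAP liver above every control and 22.0% above every AP liver. Genes that entered only through SAP were bound to lean that way.

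**Figure D3:**
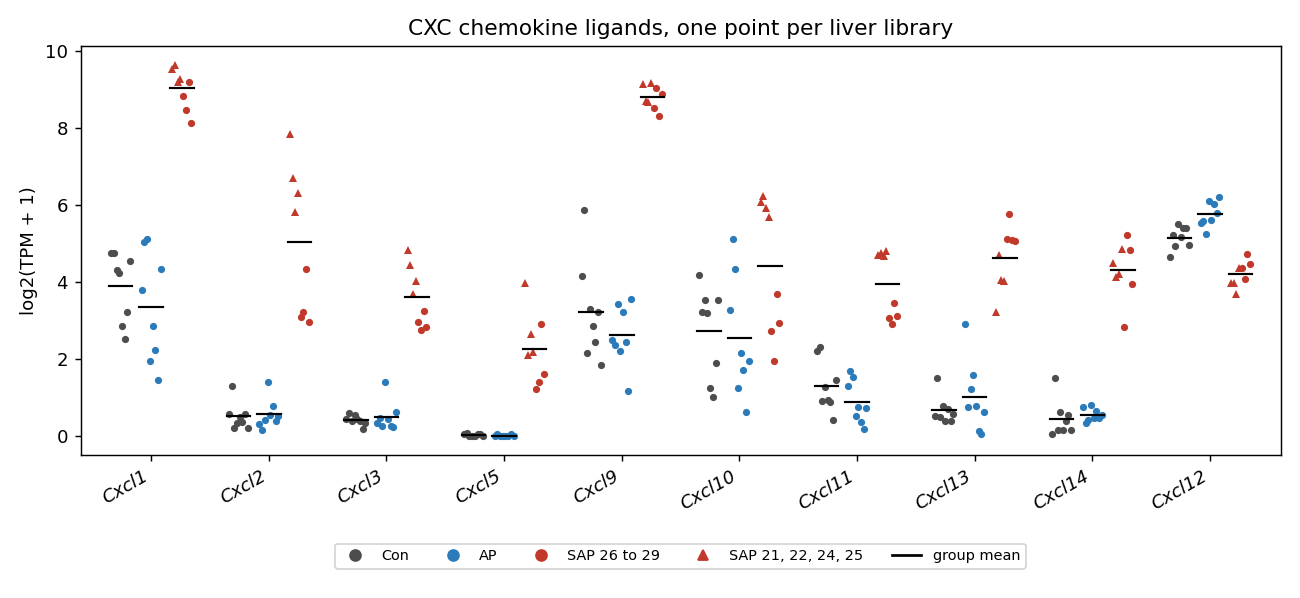
Levels of the CXC ligands in each liver (vertical axis, log2 of TPM + 1; points are single livers, black bars the group mean; SAP 21, 22, 24 and 25 drawn as triangles). Cxcl1, Cxcl2, Cxcl3, Cxcl5, Cxcl9, Cxcl11, Cxcl13 and Cxcl14 lie higher in every SAP liver than in any other liver, and Cxcl12 lies lower in SAP.

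Promoters are shown for Cxcl1, Cxcl2 and Cxcl3, which lie in a cluster on chromosome 5 and rose together, for Cxcl10, and for Cxcl12, which fell in SAP. Each runs from 250 bases before to 50 bases after the start (RefSeq, build GRCm38.p6), written 5′ to 3′ on the gene's strand. Capitals mark letters that match an NF-kB motif (GGGA, any 2 letters, TTCC) or an interferon response motif (GAAA, any 2 letters, GAAA), searched on both strands.
Cxcl1 chr5:90890995-90891294 (+ strand): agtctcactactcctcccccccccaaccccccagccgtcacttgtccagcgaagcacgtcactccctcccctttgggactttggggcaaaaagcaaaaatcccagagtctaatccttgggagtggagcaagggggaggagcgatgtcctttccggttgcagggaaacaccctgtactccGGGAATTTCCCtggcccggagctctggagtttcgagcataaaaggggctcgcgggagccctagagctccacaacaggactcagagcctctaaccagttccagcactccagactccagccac
Cxcl2 chr5:90903649-90903948 (+ strand): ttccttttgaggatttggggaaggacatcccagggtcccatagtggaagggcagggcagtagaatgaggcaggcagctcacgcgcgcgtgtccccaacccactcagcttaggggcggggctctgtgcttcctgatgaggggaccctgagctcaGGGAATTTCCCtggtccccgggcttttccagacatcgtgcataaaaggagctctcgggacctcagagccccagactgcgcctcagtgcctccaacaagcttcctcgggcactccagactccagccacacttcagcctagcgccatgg
Cxcl3 chr5:90785851-90786150 (+ strand): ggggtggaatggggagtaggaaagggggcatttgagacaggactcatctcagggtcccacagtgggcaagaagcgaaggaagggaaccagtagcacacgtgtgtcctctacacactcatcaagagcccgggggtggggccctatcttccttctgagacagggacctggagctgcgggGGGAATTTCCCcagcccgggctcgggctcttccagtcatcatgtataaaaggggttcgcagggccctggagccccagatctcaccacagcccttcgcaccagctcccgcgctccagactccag
Cxcl10 chr5:92348840-92349139 (- strand): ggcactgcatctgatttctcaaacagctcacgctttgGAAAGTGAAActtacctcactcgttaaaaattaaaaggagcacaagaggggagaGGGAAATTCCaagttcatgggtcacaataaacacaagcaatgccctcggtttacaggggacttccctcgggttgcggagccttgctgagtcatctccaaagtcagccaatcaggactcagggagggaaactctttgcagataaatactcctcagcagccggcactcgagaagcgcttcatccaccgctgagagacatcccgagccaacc
Cxcl12 chr6:117168285-117168584 (+ strand): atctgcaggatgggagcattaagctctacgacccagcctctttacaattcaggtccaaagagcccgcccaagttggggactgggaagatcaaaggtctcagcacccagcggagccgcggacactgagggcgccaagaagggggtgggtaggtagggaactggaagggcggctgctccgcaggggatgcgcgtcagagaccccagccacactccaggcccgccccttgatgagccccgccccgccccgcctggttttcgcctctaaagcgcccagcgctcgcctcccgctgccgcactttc

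Cxcl1, Cxcl2 and Cxcl3 carried the same 11 letters, GGGAATTTCCC, in which matches on both strands overlap. The run began 71 bases before the start in Cxcl1, 97 in Cxcl2 and 73 in Cxcl3. Cxcl10 held an NF-kB match 159 bases and an interferon match 213 bases before its start, and the Cxcl12 window held neither. Of the 27 members with at least 1 TPM, 17 matched the RefSeq promoter table, with 18 promoters. Among those not found in it were Ccl2, Ccl4, Ccl5, Ccl7, Ccl24, Ccr7, Cxcl5, Cxcl11 and Cxcl16. The NF-kB letters stood in 4 of the 18 (Cxcl1, Cxcl2, Cxcl3 and Cxcl10), beside 482 of all 32851 promoters of that length (1.47%). They also stood in 2 of 32 promoters of members under 1 TPM (Ccl1 and Ccr3). The windows of Cxcl9, Cxcl13, Cxcl14, Ccl3, Ccl9, Ccl19 and Ackr1, which were also higher in SAP, held no NF-kB match. Cxcl9, with the largest rise of all members, held no interferon match either. The interferon letters stood in 3 of the 18 (Ccl19, Cxcl10 and Cxcl14), beside 3.44% of all promoters and 0 of the 32. The AP-1 letters, TGANTCA, stood in 3 of the 18 (16.7%; Ccl9, Cxcl9 and Cxcl10), beside 7.81% of all promoters. Among members under 1 TPM they stood in a like share, 6 of 32 promoters (18.8%). A match describes these letters and is not a measured binding site, and the members were chosen with their levels known.

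Cxcl9, Cxcl10 and Cxcl11 bind CXCR3 on T and NK cells and are known as interferon-gamma-induced chemokines, and they lie side by side on chromosome 5. They rose to very different degrees. Cxcl9 measured 2.61 to 57.4 TPM in controls (median 7.23) and 1.26 to 10.7 TPM in AP (median 4.53). In SAP it measured 314 to 574 TPM (median 442) and lay above every other liver throughout. Its log2 change was 5.57 ± 0.41 against controls (limma adjusted p = 9.62e-12), the largest of all members and the 16th largest of all genes tested, and 6.19 against AP (limma adjusted p = 1.5e-12).

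Cxcl10 measured 1.03 to 17.0 TPM in controls (median 8.23), 0.53 to 33.5 TPM in AP (median 3.15) and 2.88 to 73.5 TPM in SAP (median 31.0). Only 4 of 8 SAP livers lay above every control, and the log2 change was 1.67 ± 0.70 (limma adjusted p = 0.0336). That call was lost when any of Con 7, Con 8, Con 9, SAP 21, SAP 22, SAP 24 or SAP 25 was left out (limma adjusted p from 0.0588 to 0.0750). It was also lost after quantile normalization (limma adjusted p = 0.0823), without the filter (limma adjusted p = 0.0718) and without Con 3 and Con 9 (limma adjusted p = 0.0652). Cxcl11 measured 0.34 to 3.99 TPM in controls (median 1.17), 0.14 to 2.24 TPM in AP (median 0.67) and 6.53 to 27.1 TPM in SAP (median 17.1), with no overlap and a log2 change of 2.64 ± 0.33 (limma adjusted p = 1.03e-07).

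Cxcl12, the ligand of CXCR4 that retains leukocytes and progenitors in tissue, ran against the inflammatory ligands. It measured 24.1 to 44.4 TPM in controls (median 35.6), 36.9 to 72.5 TPM in AP (median 51.0) and 12.0 to 25.3 TPM in SAP (median 17.7). Of the SAP livers 7 lay below every control and all 8 below every AP liver, and of the AP livers 7 lay above every control. It fell by 0.95 ± 0.16 on the log2 scale in SAP against controls (limma adjusted p = 6.85e-06) and by 1.56 against AP (limma adjusted p = 2.92e-09). In AP it was higher than in controls by 0.61 ± 0.16 (limma adjusted p = 0.0261). The AP call was lost when AP 15, AP 17, AP 19, Con 1, Con 7 or Con 10 was left out, with limma adjusted p from 0.0573 to 0.0674 and log2 changes from 0.54 to 0.61. It was also lost after rescaling without the 50 most abundant genes (limma adjusted p = 0.0547) and without the filter (limma adjusted p = 0.0601).

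Cxcl13, which attracts B cells through CXCR5, measured 0.30 to 1.84 TPM in controls (median 0.46), 0.04 to 6.55 TPM in AP (median 0.71) and 8.35 to 53.3 TPM in SAP (median 28.5). Its log2 change was 3.96 ± 0.34 (limma adjusted p = 1.91e-10), and its receptor Cxcr5 stayed at or below 0.09 TPM in every liver. Cxcl14, a chemokine known from epithelia, measured 0.03 to 1.83 TPM in controls (median 0.21), 0.27 to 0.76 TPM in AP (median 0.43) and 6.07 to 36.5 TPM in SAP (median 19.5). Its log2 change was 3.87 ± 0.25 (limma adjusted p = 5.85e-13). Both genes were higher in all 8 SAP livers than in any other liver. Cxcl16, a membrane-bound ligand of CXCR6, had overlapping levels with medians of 2.71, 2.62 and 2.92 TPM in controls, AP and SAP, and did not pass (log2 change in SAP against controls -0.02, limma adjusted p = 0.916).

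Among CC ligands, Ccl3, Ccl4 and Ccl5, which draw T cells, monocytes and macrophages, were higher in SAP. Ccl5, made by T cells, NK cells and platelets among others, measured 1.29 to 29.2 TPM in controls (median 3.25), 1.70 to 3.63 TPM in AP (median 2.85) and 121 to 334 TPM in SAP (median 144). It was the only CC ligand with a log2 change above 5 in SAP against controls, at 5.07 ± 0.34 (limma adjusted p = 1.63e-12). The highest control, Con 3, stood at 29.2 TPM while the other 7 controls did not exceed 3.78 TPM. Ccl3 measured 0.15 to 2.66 TPM in controls (median 0.53), 0.13 to 1.05 TPM in AP (median 0.53) and 1.98 to 9.48 TPM in SAP (median 4.76), a log2 change of 1.71 ± 0.26 (limma adjusted p = 1.61e-06). Ccl4 measured 0.24 to 3.32 TPM in controls (median 1.42), 0.41 to 2.06 TPM in AP (median 0.75) and 1.37 to 19.1 TPM in SAP (median 6.92), a log2 change of 1.66 ± 0.40 (limma adjusted p = 0.000697). For Ccl3 7 SAP livers and for Ccl4 4 SAP livers were above every control.

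The ligands of CCR2, which draws monocytes from blood, did not move together. Ccl2, the chief monocyte attractant, measured 0.30 to 8.05 TPM in controls (median 1.75), 0.18 to 3.39 TPM in AP (median 1.21) and 5.93 to 187 TPM in SAP (median 59.9). Its log2 change was 3.91 ± 0.54 (limma adjusted p = 4.84e-07), and 7 SAP livers lay above every control. Ccl7, its neighbour on chromosome 11, measured 0.97 to 4.05 TPM in controls (median 1.86), 0 to 3.26 TPM in AP (median 1.91) and 0.73 to 16.4 TPM in SAP (median 5.38), a log2 change of 0.87 ± 0.38 (limma adjusted p = 0.0439). That call was lost when Con 6, Con 7, Con 8, Con 9, Con 10, SAP 21, SAP 22, SAP 24 or SAP 25 was left out (limma adjusted p from 0.0592 to 0.116). It was also lost under quantile normalization, rescaling without the 50 most abundant genes, a pseudocount of 0.1, no filter and a fit of the 2 groups alone (limma adjusted p from 0.0547 to 0.143). Ccl12, in the same cluster and in mice also a CCR2 ligand, had medians of 1.97, 1.5 and 0.95 TPM in controls, AP and SAP with overlapping ranges, and did not pass (log2 change in SAP against controls -0.56, limma adjusted p = 0.121).

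**Figure D4:**
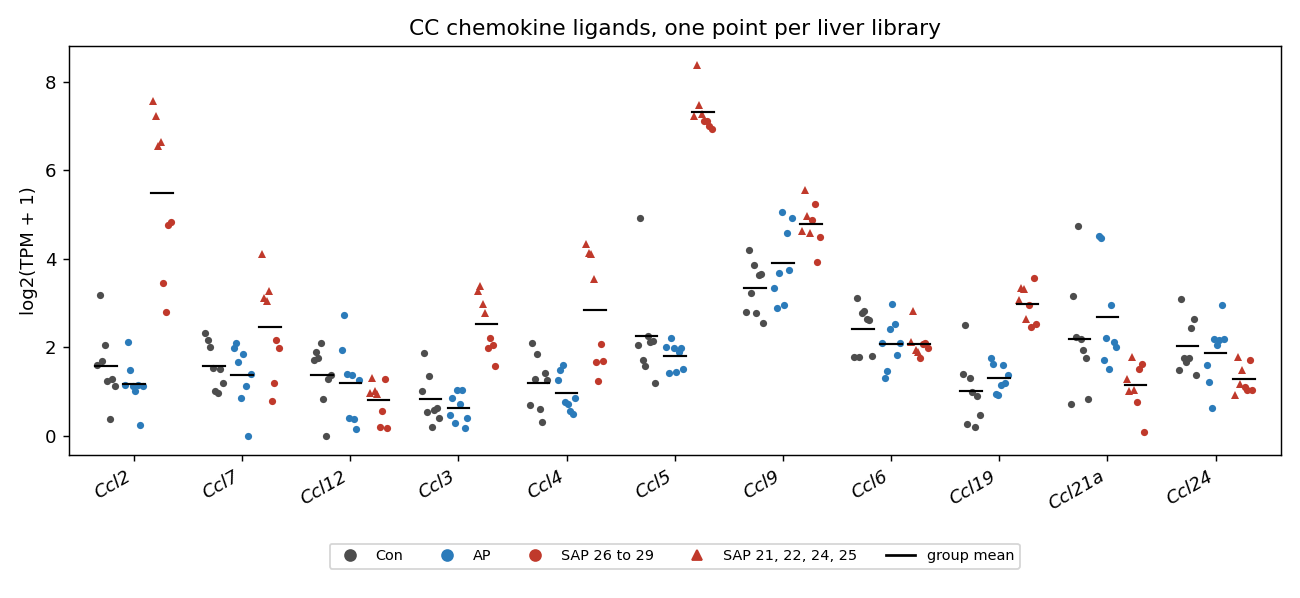
Levels of the CC ligands in each liver (vertical axis, log2 of TPM + 1; points are single livers, black bars the group mean; SAP 21, 22, 24 and 25 drawn as triangles). Ccl5 lies at 121 TPM or more in every SAP liver, and the triangles lie above the other SAP points for Ccl2, Ccl3, Ccl4, Ccl5 and Ccl7.

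Ccl9 and Ccl6, rodent ligands of CCR1, lie next to each other and differed. Ccl9 was already well expressed in controls, at 4.91 to 17.3 TPM (median 9.91), with 6.47 to 32.5 TPM in AP (median 12.2) and 14.2 to 46.4 TPM in SAP (median 26.0). Its log2 change was 1.45 ± 0.31 against controls (limma adjusted p = 0.000189) and 0.88 against AP (limma adjusted p = 0.0136), and 7 SAP livers lay above every control. Against AP the Ccl9 call was lost without SAP 21, 22, 24 and 25 (log2 change 0.73, limma adjusted p = 0.109). Ccl6 had overlapping levels with medians of 5.19, 3.30 and 3.10 TPM in controls, AP and SAP (log2 change in SAP against controls -0.33, limma adjusted p = 0.194). Ccl24, an eosinophil attractant that binds CCR3, fell by 0.75 ± 0.27 on the log2 scale (limma adjusted p = 0.0158), from a median of 2.39 TPM in controls to 1.2 TPM in SAP, with overlap. Without Con 3 and Con 9, the controls with the highest share of serum amyloid A transcripts, this fall was 0.47 and did not pass (limma adjusted p = 0.110). Ccl25, the CCR9 ligand, did not pass, with medians of 1.73, 2.43 and 1.42 TPM in controls, AP and SAP.

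Ccl19 and Ccl21a, the ligands of CCR7 that guide T cells and dendritic cells in lymphoid tissue, went in different directions. The main entry of Ccl19 measured 0.16 to 4.71 TPM in controls (median 0.93), 0.91 to 2.38 TPM in AP (median 1.44) and 4.50 to 10.9 TPM in SAP (median 7.07), a log2 change of 1.98 ± 0.25 (limma adjusted p = 1.33e-07), with 7 SAP livers above every control. The main entry of Ccl21a measured 0.64 to 25.6 TPM in controls (median 3.20), 1.85 to 22.0 TPM in AP (median 3.51) and 0.06 to 2.47 TPM in SAP (median 1.25). It fell by 1.55 on the log2 scale in SAP against AP (limma adjusted p = 0.0069) and did not pass against controls (log2 change -1.05, limma adjusted p = 0.0564). Both outcomes depended on the setting. Against controls it passed after quantile normalization (limma adjusted p = 0.0355), after rescaling without the 50 most abundant genes (limma adjusted p = 0.0465) and without Con 1 (limma adjusted p = 0.0241), among others. The call against AP was lost without SAP 26 to 29 (limma adjusted p = 0.0572). Both levels are uncertain, because 52.0% of the 50-base windows of Ccl19 transcripts and 71.6% of those of Ccl21a occur in other annotated genes, including predicted copies, and how shared reads were counted is not given in the sources used here.

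Receptors were low throughout and none of the 17 reached the main filter. Their changes come from a fit without the filter, over 26977 genes, where 3 of the 17 were higher in SAP than in controls (Ccr1, Ccr7 and Cxcr2; 24.9% of all genes were) and 5 were lower (Ccr3, Cx3cr1 and Cxcr3 among them; 16.3% of all genes were). Against AP 4 were higher and 3 lower (23.7% and 15.0% of all genes), and between AP and controls no receptor passed (0.593% higher and 0.230% lower of all genes). Most receptor values were near 0, where the log2(TPM + 1) scale compresses changes.

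Cx3cr1, the fractalkine receptor of patrolling monocytes, measured 0.49 to 1.66 TPM in controls (median 0.89) and 0.37 to 1.22 TPM in AP (median 0.61). In SAP it was at most 0.02 TPM and fell by 0.94 (limma adjusted p = 4.32e-07 without the filter).

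Ccr3, the eosinophil receptor of Ccl24, measured 0.21 to 0.93 TPM in controls (median 0.52) and at most 0.02 TPM in SAP, and fell by 0.62 (limma adjusted p = 2.07e-06 without the filter). In the other direction, Cxcr2, the neutrophil receptor of Cxcl1, Cxcl2, Cxcl3 and Cxcl5, measured 0.05 to 0.20 TPM in controls (median 0.13), 0.01 to 0.12 TPM in AP (median 0.06) and 0.33 to 1.29 TPM in SAP (median 0.40), a log2 change of 0.41 (limma adjusted p = 0.000122 without the filter). The SAP livers lay wholly above the others. Ccr1, the receptor of Ccl9 and Ccl6, measured 0 to 0.33 TPM in controls and 0 to 0.08 TPM in AP, with a median of 0.03 TPM in each. In SAP it measured 0.30 to 0.76 TPM (median 0.49), a log2 change of 0.50 (limma adjusted p = 7.92e-07 without the filter). The highest control, Con 3 at 0.33 TPM, lay within the SAP range. Ccr7 measured 0.04 to 0.26 TPM in controls (median 0.07), 0.02 to 0.30 TPM in AP (median 0.055) and 0.27 to 2.78 TPM in SAP (median 1.12), a log2 change of 0.87 (limma adjusted p = 0.000153 without the filter).

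Cxcr3, the receptor of Cxcl9, Cxcl10 and Cxcl11, reached at most 0.25 TPM in controls and 0.09 TPM in SAP, where it fell by 0.13 (limma adjusted p = 0.0121 without the filter). Ccr2, the receptor of Ccl2, had medians of 0.12, 0.13 and 0.075 TPM in controls, AP and SAP and did not pass, and Cxcr4, the receptor of Cxcl12, did not pass against controls (medians 0.080 and 0.22 TPM). The receptors Ccr4, Ccr6, Ccr8, Ccr9, Ccr10, Cxcr1, Cxcr5 and Cxcr6, had group means of 0.045 TPM or less.

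**Figure D5:**
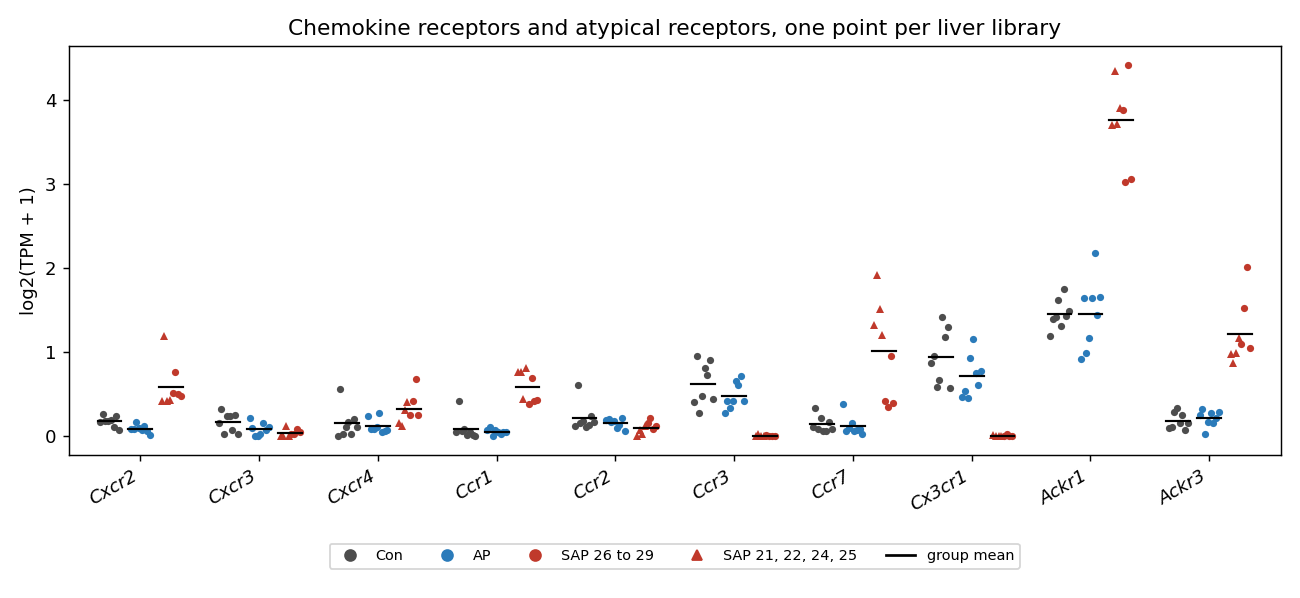
Levels of receptors and atypical receptors in each liver (vertical axis, log2 of TPM + 1; points are single livers, black bars the group mean; SAP 21, 22, 24 and 25 drawn as triangles). Cx3cr1 and Ccr3 lie lower in SAP and Ackr1, Ackr3, Ccr1 and Cxcr2 lie higher.

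Of the atypical receptors, Ackr1, which binds many inflammatory chemokines on venular endothelium and red cells, measured 1.29 to 2.36 TPM in controls (median 1.68), 0.89 to 3.54 TPM in AP (median 1.92) and 7.13 to 20.4 TPM in SAP (median 13.0). All SAP livers were above all others, with a log2 change of 2.31 ± 0.19 (limma adjusted p = 8.48e-11). Of its windows 20.4% lie in Cadm3, which overlaps it on the same strand, so its level is uncertain by the limit of 20% used here. Cadm3 itself had medians of 1.22 TPM in controls and 0.285 TPM in SAP. Ackr3, a scavenger of Cxcl12, measured 0.05 to 0.26 TPM in controls (median 0.11), 0.02 to 0.25 TPM in AP (median 0.18) and 0.83 to 3.02 TPM in SAP (median 1.10), a log2 change of 1.03 (limma adjusted p = 8.17e-08 without the filter). Ackr2 and Ackr4 stayed under a group mean of 0.58 TPM and did not pass.

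The 38 members under 1 TPM in every group included 6 entries listed at 0 in every liver (Ccl21b in 3 entries, Ccl21c, Ccl26 and Ccl27b). Without the filter 38 ligand entries entered the fit. Among ligands under the main filter, Ccl11, an eosinophil attractant, had a log2 change of 0.75 in SAP against controls (limma adjusted p = 0.00033). Ccl27a, a ligand of CCR10, was listed at 0 in all 8 SAP livers, beside medians of 0.76 TPM in controls and 0.54 TPM in AP.

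The SAP livers were not alike. Those titled SAP 21, 22, 24 and 25 had been seen in an earlier analysis of these data to stand apart from SAP 26 to 29, and the labels give nothing that separates them. Of the 27 members 11 were higher in each of SAP 21, 22, 24 and 25 than in any of SAP 26 to 29, namely Ccl2, Ccl3, Ccl4, Ccl5, Ccl7, Ccr7, Cxcl1, Cxcl2, Cxcl3, Cxcl10 and Cxcl11. Of the 24 tested members these were 10, while 4.84% of all genes tested had that order. Ccl2 lay at 92.2 to 187 TPM in the former livers and 5.93 to 27.7 TPM in the latter, Cxcl2 at 55.2 to 227 against 6.73 to 19.3 TPM. Cxcl10 lay at 50.1 to 73.5 against 2.88 to 12.0 TPM, the latter within the range of controls. Cxcl13 alone had the opposite order, at 8.35 to 24.7 against 32.3 to 53.3 TPM, which 28.5% of all genes tested shared. Cxcl9 overlapped, at 406 to 574 against 314 to 523 TPM.

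Without SAP 21, 22, 24 and 25, Cxcl10, Ccl4 and Ccl7 no longer passed against controls, with log2 changes of 0.10 (limma adjusted p = 0.907), 0.48 (limma adjusted p = 0.146) and -0.06 (limma adjusted p = 0.889). Cxcl5 fell under the filter without them and was not tested there. Without these livers Ccl2 still rose by 2.39 and Cxcl2 by 2.89 on the log2 scale, and without SAP 26 to 29 by 5.42 and 6.15. The changes of Cxcl1, Cxcl9 and Ccl5 stayed between 4.76 and 5.68 under both exclusions.

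Genes around the family were then counted from lists of the pathway. Among all genes tested 44.2% were higher and 29.8% lower in SAP than in controls, and the counts of lists here and of cell markers further on are a description beside those shares. Listed genes with a mean under 1 TPM in both controls and AP (Csf3, Tnfaip3, Selp, Mmp2, and the markers Ngp, Retnlg and Lyve1) entered the test only through SAP and had to be higher there. Of 7 genes of the family or its relatives outside the naming rule 3 were tested, with 2 higher and 1 lower in SAP. Pf4, the platelet chemokine, averaged 1.81 ± 0.733 TPM in controls and rose to 19.0 ± 6.75 TPM in SAP (SD, n = 8; log2 change 2.82, limma adjusted p = 8.95e-12). Ccrl2, which binds the chemoattractant chemerin without signalling, rose by 2.13 (limma adjusted p = 0.000114) and Mif fell by 0.43 (limma adjusted p = 0.00155). The level of Ccrl2 was 16.1 to 22.8 TPM in SAP 21, 22, 24 and 25. In SAP 26 to 29 it was 1.73 to 3.38 TPM, within the control range of 0.20 to 3.45 TPM. Xcl1, a T and NK cell chemokine, was listed at 1.51 ± 0.711 TPM in controls and 0.0462 ± 0.0905 TPM in SAP, and Ppbp and Xcr1 stayed at or under 0.59 TPM in every liver. None of these 3 was tested.

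Of the inducing cytokines and their receptors, 10 of 15 were tested and all 10, Csf3 included, were higher in SAP than in controls (44.2% of all genes were). Among the untested ones Tnf overlapped, at 0.10 to 1.46 TPM in controls and 0.13 to 0.97 TPM in SAP. Il6, also untested, measured 0 to 0.15 TPM in controls and 0.24 to 4.66 TPM in SAP. Il1r1, the interleukin-1 receptor, rose from 4.68 ± 1.71 to 75.9 ± 11.0 TPM, Il17ra, a chain of the interleukin-17 receptor, from 2.16 ± 0.749 to 8.63 ± 1.05 TPM, and Csf3, the granulocyte growth factor, from 0.00375 ± 0.0106 to 32.3 ± 31.1 TPM. Of NF-kB subunits and feedback genes 9 of 10 tested were higher (44.2% of all genes were), among them Nfkbia, the feedback inhibitor, from 13.5 ± 4.59 to 78.0 ± 32.1 TPM, Tnfaip3 from 0.226 ± 0.224 to 15.3 ± 9.04 TPM, and Nfkbiz from 1.5 ± 0.700 to 10.7 ± 4.45 TPM. Among interferon signalling factors, Stat2 fell from 20.9 ± 5.66 to 10.3 ± 1.14 TPM (log2 change -0.92, limma adjusted p = 1.17e-05), while Irf8 did not pass (log2 change 0.41, limma adjusted p = 0.0591). Ifng, the interferon that induces Cxcl9, had means of 0.0737, 0.0562 and 0.126 TPM in controls, AP and SAP and was not tested.

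Of genes that signal below chemokine receptors 7 of 11 tested were higher and 2 lower (44.2% and 29.8% of all genes), with Rac1, which drives cell movement, at 23.6 ± 6.01 and 86.9 ± 11.6 TPM, Rgs16, a brake on G-protein signals, at 7.24 ± 7.52 and 87.8 ± 59.5 TPM, and Grk6, a receptor kinase, at 1.63 ± 0.549 and 4.96 ± 1.98 TPM in controls and SAP. Of genes that cut or display chemokines 5 of 8 were higher and 1 lower (44.2% and 29.8% of all genes). Sdc1, a heparan sulphate carrier, rose from 21.5 ± 3.69 to 75.0 ± 22.7 TPM and the matrix protease Mmp2 from 0.724 ± 0.259 to 2.54 ± 1.39 TPM, and Dpp4, the protease that trims Cxcl12 and Cxcl10, fell from 19.0 ± 5.85 to 7.63 ± 0.885 TPM. Of adhesion partners 3 of 5 tested were higher (44.2% of all genes were), Selp from 0.657 ± 0.219 to 21.5 ± 7.40 TPM, Icam1 from 11.2 ± 6.00 to 80.5 ± 32.5 TPM and Vcam1 from 1.58 ± 0.749 to 6.61 ± 2.61 TPM. Between AP and controls no member of these lists passed.

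Markers of cells that make or follow chemokines differed from list to list in SAP, and their part in the results was not tested. Neutrophil markers (12 genes, 4 tested, all 4 higher in SAP, of which Ngp and Retnlg had to be) summed to 2.71 to 29.5 TPM in controls, 3.75 to 7.79 TPM in AP and 128 to 361 TPM in SAP, with S100a9 at 5.85 ± 5.42 TPM in controls and 134 ± 46.8 TPM in SAP, and Ngp at 0.0362 ± 0.0646 and 6.39 ± 2.90 TPM. Most of the neutrophil sum in SAP came from S100a9 and S100a8, the latter at 23.0 to 108 TPM. Elane, on the same list but not tested, was not higher in SAP, at 0 to 0.30 TPM beside 0 to 0.58 TPM in controls. Monocyte and macrophage markers (10 genes, 7 tested, 1 higher and 3 lower) summed to 40.6 to 157, 33.1 to 72.1 and 543 to 1401 TPM, where Cd14, which hepatocytes can also express, made up most at 817 ± 247 TPM in SAP and Csf1r fell from 3.47 ± 1.38 to 1.87 ± 0.656 TPM. Kupffer cell markers (9 tested, 1 higher, 6 lower) summed to 110 to 418, 77.2 to 272 and 97.9 to 213 TPM, with Marco at 3.38 ± 7.64 and 15.9 ± 9.21 TPM and Cd5l at 19.0 ± 12.8 and 3.99 ± 1.95 TPM. T and NK cell markers, of cells known to carry Cxcr3, had 0 of 12 tested and summed to 1.89 to 12.3, 1.76 to 4.30 and 2.09 to 5.53 TPM. B cell markers summed to 2.92 to 6.29, 2.13 to 16.8 and 1.87 to 4.26 TPM (1 of 6 tested, Ighm, which did not pass), and dendritic cell markers to 0.52 to 2.0, 0.56 to 1.07 and 0.49 to 1.85 TPM (0 of 6 tested).

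Markers of resident cells went both ways within lists, in shares to be read against the 44.2% higher and 29.8% lower of all genes. Of sinusoidal endothelial markers 3 of 7 tested were higher and 3 lower, with Lyve1 at 0.301 ± 0.158 TPM in controls and 11.2 ± 5.13 TPM in SAP, and Clec4g at 17.8 ± 6.21 and 3.01 ± 1.05 TPM. Of stellate cell markers 3 of 6 were higher and 3 lower, with Dcn at 23.1 ± 6.14 and 80.3 ± 20.5 TPM and Colec11 at 11.6 ± 2.37 and 2.27 ± 0.778 TPM. Of cholangiocyte markers 1 of 2 was higher (Spp1, 15.2 ± 3.98 and 48.4 ± 20.2 TPM) and Krt19 did not pass. Hepatocyte markers were abundant in all livers (44904 to 58694, 45905 to 62519 and 46936 to 58845 TPM summed), with 2 of 7 higher (Trf among them) and 3 lower (Ttr among them). Exocrine pancreas markers summed to at most 41.6 TPM in any liver, nearly all of it Cela1 (25.5 ± 8.05 and 12.0 ± 2.13 TPM), and Cpa1 was at 0 in every SAP liver and Amy2a1 in every AP liver.

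Libraries summed to 986423 to 993642 TPM and listed 17140 to 18565 genes above 0. Transcripts of the mitochondrial genome held 12.5 to 22.2% of TPM in controls, 7.81 to 13.7% in AP and 2.80 to 6.26% in SAP, and serum amyloid A transcripts 0.0508 to 1.14%, 0.302 to 1.28% and 7.37 to 12.4%. Because TPM shares a fixed total, such shifts move the values of all other genes, and their part in the results was not tested. The strand setting of the counting is unknown from the sources used here, which touches Cxcl11 (40.4% of windows opposite the pseudogene Gm2673, at or under 0.03 TPM), Cxcl16 (16.9% opposite Zmynd15) and Cxcl10 (3.59% opposite Art3, whose median was 1.12 TPM in controls and 8.37 TPM in SAP).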

How the data were processed

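Mouse liver RNA was sequenced in 24 libraries, and the authors deposited a table of 55536 gene entries in TPM. No header names the unit: it was read from the values, which sum to between 986423 and 993642 in each library. RNA was extracted with Trizol, per the labels' protocols. The submitters' processing notes list edgeR alone, without a version. Aligner, build and annotation are not given in these sources. TPM keeps no read counts, so no counting interval was computed and count-based tests were not used. Libraries were grouped by their titles, 8 per group, and 0 columns stayed unmapped. The highest correlation between libraries was r = 0.987 across genes, and no 2 libraries were taken as the same.

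Values were taken as log2(TPM + 1), entries whose mean over 24 libraries reached 1 TPM were kept (10555), and limma 3.58.1 in R 4.3.3 with an intensity trend was fitted to the 3 groups together. P-values were adjusted by Benjamini-Hochberg within each comparison over all entries tested. On simulated data for SAP against controls over 10555 genes, 89% of log2 changes of 1 and 96% of log2 changes of 2 were recovered with the right sign, and 4.15% of calls were false. In that simulation few genes changed, noise was independent between genes and no fixed total was kept. In the real data 4661 genes were higher and 3147 lower, so these rates do not carry over to them. Named were all members with a group mean of at least 1 TPM, in full where a group mean reached 5 TPM or a passed change reached 1 on the log2 scale, and from each pathway list the 3 and from each marker list the 2 genes with the smallest p over all groups. Some members below these limits were named after their values were seen. The members, lists and the division of SAP livers were chosen with earlier results of these data known. Promoters and transcripts came from RefSeq (GRCm38.p6) and GENCODE M21. The 36 alternatives were other scalings, filters, pseudocounts, fits and thresholds, and leaving out libraries. Protein sequences were not used here, and some genes are not reported here but stayed in the fits, sums and counts.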

Additional observations from a re-analysis of the deposited data

Results flagged for a closer look

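Livers that stood far from the other 7 of their group were looked for in 26 members with a mean of at least 1 TPM, on the log2 scale with Dixon's test, in 78 groups of 8. Chance flags about 1 in 20 groups, and 8 were found. Con 3 accounts for 4 of them: Ccl5 was at 29.17 TPM there and at 1.29 to 3.78 TPM in the other controls, Cxcl2 at 1.44 against 0.16 to 0.50 TPM, Cxcl13 at 1.84 against 0.30 to 0.73 TPM, and Cxcl14 at 1.83 against 0.03 to 0.55 TPM. Serum amyloid A transcripts held 1.14% of TPM in Con 3, the highest share among controls. SAP 22 stood above the other SAP livers for Ccl5, at 334.19 against 121.22 to 177.83 TPM, and for Ccl6, at 6.04 against 2.39 to 3.34 TPM. In AP livers, Cxcl3 was at 1.65 TPM in AP 15 against 0.18 to 0.55 TPM, and Ccr7 at 0.30 TPM in AP 11 against 0.02 to 0.11 TPM.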

How the results depend on the processing

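The count of 17 members higher in SAP than in controls ranged from 13 (without SAP 21, 22, 24 and 25) to 22 (no filter), and that of 17 higher than in AP from 13 to 25. With single libraries left out they were 15 to 17 and 17 to 17. The single member higher in AP than in controls was lost, leaving 0, after rescaling without the 50 most abundant genes, without the filter and at an adjusted p under 0.01, and the count ran from 0 to 1 with single libraries left out. The count of members lower in AP was 0 throughout (0 at an unadjusted limma p under 0.05). Members lower in SAP than in controls, 2 as reported, were 4 after quantile normalization, 6 after rescaling, 8 without the filter, 1 at an adjusted p under 0.01 and 1 without Con 3 and Con 9, and 2 to 4 with single libraries left out (4 without SAP 24). Members lower in SAP than in AP, 2 as reported, were 4 after quantile normalization, 5 after rescaling, 6 without the filter, 4 with 1 TPM required in at least 8 libraries, and 2 to 4 with single libraries left out (4 without Con 10, SAP 22 or SAP 28). Members with a mean of at least 1 TPM in any group, 27 as reported, were 28 after quantile normalization and 36 after rescaling. The cause of these shifts was not tested. Rescaling raised the median summed ligand level to 242, 293 and 3396 TPM in controls, AP and SAP, and that of the receptors to 8.72, 5.66 and 6.38 TPM. Ccl7 turned direction in SAP against controls without SAP 21, 22, 24 and 25 (log2 change -0.0586). Over all genes the median log2 change of AP from controls, SAP from controls and SAP from AP was 0.06, 0.21 and 0.13 as reported, 0.01, 0.03 and 0.01 after quantile normalization and -0.06, 0.20 and 0.25 after rescaling. No paired analysis was possible because the groups share no replicate numbers. The depth is unknown, so values near 0 TPM cannot be given an error.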
